A study of Mus musculus with 6 samples.

Results

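The regions described here were 941 rows of the deposited expression table that carry the name of a FANTOM3 clone, a mouse cDNA from a large cDNA collection, and that lie in a divergent position to a gene. A clone row was taken when it overlapped no gene row on either strand, when its nearest edge lay within 10 kb upstream of the 5′ end of a gene row on the opposite strand, when it did not lie within 10 kb past the 3′ end of a gene row on its own strand, and when its counts summed to 30 or more over the 6 libraries. The gene whose 5′ end was nearest is called the partner. These 941 rows formed 800 separate loci, facing 776 partners, out of 56826 rows in all, of which 33353 were clones and 7748 were clones that overlapped no gene row. A further 443 clones met the position rule but held fewer than 30 counts and were not described.

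The libraries came from brains of adult male C57BL/6 mice of 8 to 9 weeks. For 3 libraries a silicone-coated nylon filament occluded the middle cerebral artery for 60 min (1 h of ischemia) and was then withdrawn for 6 h of reperfusion. For 3 sham libraries the vessels were exposed in the same operation and no filament was inserted. The labels name the tissue as brain, without the hemisphere or the piece taken, and give no genetic change in either group. Libraries from RNA depleted of ribosomal RNA held 45425867 to 49686109 counts each. Summed levels of 10 neuron markers were 3968 to 4581 CPM (counts scaled to library size) over the 6 libraries, and all 10 were found in the table. Some marker sums spread widely among the ischemia/reperfusion libraries, and their part in the results was not tested. Choroid plexus markers summed to 22.5 to 1217 CPM there and 557.8 to 775 in sham, oligodendrocyte markers to 3896 to 10032 against 4560 to 5714, and striatum markers to 205 to 699 against 186 to 414. In pieces of whole tissue, fewer cells of a type and less RNA per cell cannot be told apart.

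Many mammalian promoters are transcribed in both directions. From a nucleosome-free stretch, often a CpG island without a TATA box, RNA polymerase II makes the messenger RNA on one side and an upstream antisense RNA on the other, and most of these antisense RNAs are short-lived. Some are spliced and stable enough to be annotated as long non-coding RNAs (lncRNAs). The question that the table allows is how strongly such rows were read beside their partners in brain, and whether they moved with them after ischemia and reperfusion.

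The nearest clones began within a few bases of the gene they faced, so that clone and gene nearly met. The windows below show this for 5 of the 8 nearest clones with a level of at least 0.5 RPKM (counts per kilobase of row, scaled to library size) and for the clones beside Cdkl4 and Stk40, partners that return in the comparison of the groups. Each window holds the 250 bases before the partner's start and the first 20 bases of the gene, 5′ to 3′ on the partner's strand, from RefSeq on GRCm38.p6, the patched form of the mm10 build that the files use. Capitals mark the bases that the clone row covers, on the other strand. The windows lie at chr9:106247935-106248204 (minus strand) for Alas1, chr6:39420350-39420619 (minus strand) for Mkrn1, chr11:88047123-88047392 (plus strand) for Srsf1, chr16:93603796-93604065 (minus strand) for Setd4, chr7:24530398-24530667 (plus strand) for Irgq, chr17:80563815-80564084 (minus strand) for Cdkl4 and chr4:126103707-126103976 (plus strand) for Stk40.
Alas1: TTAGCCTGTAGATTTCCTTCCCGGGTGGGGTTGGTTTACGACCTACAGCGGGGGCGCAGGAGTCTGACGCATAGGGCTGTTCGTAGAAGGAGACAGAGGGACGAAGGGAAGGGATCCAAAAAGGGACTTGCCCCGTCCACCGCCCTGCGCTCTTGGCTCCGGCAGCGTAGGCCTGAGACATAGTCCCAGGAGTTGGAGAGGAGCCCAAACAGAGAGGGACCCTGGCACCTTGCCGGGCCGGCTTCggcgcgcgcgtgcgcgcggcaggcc
Mkrn1: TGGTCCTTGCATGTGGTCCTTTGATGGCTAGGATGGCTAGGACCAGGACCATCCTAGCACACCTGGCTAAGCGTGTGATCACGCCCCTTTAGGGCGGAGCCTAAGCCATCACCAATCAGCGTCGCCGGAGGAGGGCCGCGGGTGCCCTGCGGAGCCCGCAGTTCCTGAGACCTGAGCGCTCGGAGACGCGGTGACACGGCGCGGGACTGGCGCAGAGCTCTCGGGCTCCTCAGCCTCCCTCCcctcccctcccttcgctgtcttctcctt
Srsf1: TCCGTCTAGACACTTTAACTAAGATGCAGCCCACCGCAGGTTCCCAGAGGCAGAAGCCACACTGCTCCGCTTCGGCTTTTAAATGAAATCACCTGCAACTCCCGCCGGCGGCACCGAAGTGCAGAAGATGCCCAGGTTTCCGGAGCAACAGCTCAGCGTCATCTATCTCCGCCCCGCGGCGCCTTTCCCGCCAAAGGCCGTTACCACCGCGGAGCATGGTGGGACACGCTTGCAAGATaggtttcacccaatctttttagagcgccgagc
Setd4: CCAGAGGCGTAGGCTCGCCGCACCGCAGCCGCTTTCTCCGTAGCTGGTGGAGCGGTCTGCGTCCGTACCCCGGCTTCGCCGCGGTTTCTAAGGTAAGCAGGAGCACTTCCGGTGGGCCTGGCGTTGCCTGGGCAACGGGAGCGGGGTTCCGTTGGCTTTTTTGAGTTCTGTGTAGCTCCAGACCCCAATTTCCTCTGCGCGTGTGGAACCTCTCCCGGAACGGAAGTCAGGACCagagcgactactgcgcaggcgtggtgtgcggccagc
Irgq: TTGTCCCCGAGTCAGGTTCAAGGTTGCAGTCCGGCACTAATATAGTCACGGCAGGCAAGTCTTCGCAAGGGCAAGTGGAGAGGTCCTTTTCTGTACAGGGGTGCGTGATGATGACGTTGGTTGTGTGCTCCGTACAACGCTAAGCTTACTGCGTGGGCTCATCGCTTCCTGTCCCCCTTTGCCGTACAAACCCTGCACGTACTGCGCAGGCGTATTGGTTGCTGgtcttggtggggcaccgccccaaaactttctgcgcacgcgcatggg
Cdkl4: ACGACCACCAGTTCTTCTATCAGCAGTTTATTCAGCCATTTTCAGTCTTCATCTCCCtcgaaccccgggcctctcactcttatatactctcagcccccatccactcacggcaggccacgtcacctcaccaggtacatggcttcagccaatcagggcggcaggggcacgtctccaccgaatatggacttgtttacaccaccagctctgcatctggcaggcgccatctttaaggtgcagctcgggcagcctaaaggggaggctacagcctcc
Stk40: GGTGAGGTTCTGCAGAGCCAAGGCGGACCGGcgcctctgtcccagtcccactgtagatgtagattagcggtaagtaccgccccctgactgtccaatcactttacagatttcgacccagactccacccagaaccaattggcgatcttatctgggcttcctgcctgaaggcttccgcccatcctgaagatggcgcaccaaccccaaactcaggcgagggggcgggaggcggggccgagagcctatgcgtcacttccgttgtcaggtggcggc

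Beside Alas1, which encodes the rate-limiting enzyme of haem synthesis, clone fantom3_4930500F10 covered 245 of the bases shown and stopped 5 bases short of the gene. The gap was 8 bases at Mkrn1, a gene for a RING-type ubiquitin ligase, 12 bases at Srsf1, a splicing factor gene, 16 bases at the methyltransferase gene Setd4 and 26 bases at Irgq. It was wider at Cdkl4, a gene for a cyclin-dependent kinase-like protein, with 193 bases, and at the kinase gene Stk40, with 219 bases. These gaps are to the start shown; the full RefSeq spans of Mkrn1, Srsf1, Setd4 and Cdkl4, over all their transcripts, begin further upstream and overlap the clone. The windows shown were rich in G and C, from 55.0% at Cdkl4 to 65.3% at Alas1 and Setd4 over the 300 bases of the full RefSeq window.

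Over all 941 clones the median distance to the partner's 5′ end was 300 bases (quartiles 129 and 1489). The smallest distance was 6 bases and the largest 9971, and the nearest clones just outside the limit lay at 10065 to 10155 bases. Within 250 bases lay 441 clones (46.9%), within 500 bases 573 (60.9%) and within 2000 bases 732 (77.8%). The distances formed a peak at about 100 to 300 bases and a flat tail, as the histogram of distances shows. Most rows, 681 (72.4%), were a single block without a gap between exons. At the count limit, 9 rows held exactly 30 counts and 3 rows just outside held 29.

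**Figure D1:**
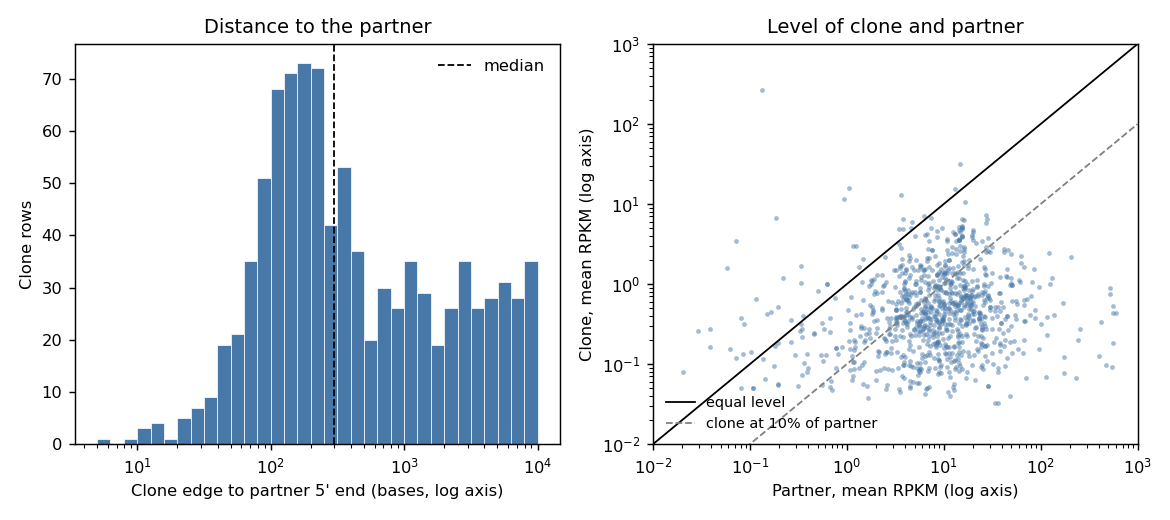
Left: number of clone rows by the distance from the clone's nearest edge to the partner's 5′ end (bases, log axis), with the median of 300 bases as a dashed line. Right: mean RPKM over 6 libraries of each clone (vertical, log axis) and its partner (horizontal, log axis) for 940 rows (1 row whose partner was at 0 is left out), with lines at equal level and at 10% of the partner; most points lie under the dashed line.

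Set against the RefSeq annotation (overlap of at least 1 base on either strand), the clones fell into 5 classes. No RefSeq gene overlapped 360 of them (38.3%). A RefSeq lncRNA overlapped 256 (27.2%), and 222 (23.6%) overlapped the RefSeq span of their own partner, which there begins further upstream than the row in the table. Another protein-coding gene of RefSeq overlapped 85 (9.03%), and 18 (1.91%) overlapped a gene of another kind. Over all classes 245 clones overlapped a RefSeq lncRNA on their own strand. Of the partners, 739 were protein-coding and 22 were lncRNA genes.

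Promoter windows of RefSeq could be matched for 531 of the 776 partners, where the RefSeq start lay within 50 bases of the 5′ end in the table. These windows (250 bases before and 50 after the start) had a median GC content of 64.7% and a median ratio of observed to expected CpG of 0.833. The same medians were 60.3% and 0.729 over 10906 protein-coding gene rows with 30 or more counts, and 52.7% and 0.384 over all 32851 windows. Over 2417 windows of divergent gene pairs (gene rows on opposite strands with 5′ ends within 10 kb) they were 61.3% and 0.814. Motifs were searched by their letters on both strands. The TATA box was searched as TATAAA, the GC box, bound by Sp factors, as GGGCGG and the CCAAT box by the letters of its name. The core of the sites of ETS factors was searched as CCGGAA, that of the respiratory factor NRF1 as TGCGCA, and that of the cyclic AMP response element (CRE) as TGACGT. The E-box was searched as CACGTG, and no motif contains another.

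Where the clone lay within 250 bases (276 windows), 2.90% of windows held the TATA box letters, 72.5% a GC box, 42.4% the ETS core, 22.5% the NRF1 core and 18.5% the CRE core. Over the expressed protein-coding genes the shares were 8.26%, 61.3%, 25.3%, 13.1% and 10.9%, and over all windows 13.6%, 35.7%, 14.9%, 7.76% and 7.51%. Over divergent gene pairs (2417 windows) they were 6.04%, 65.5%, 37.7%, 17.0% and 14.9%. With the clone over 250 to 2000 bases away (160 windows) they were 4.38%, 79.4%, 24.4%, 11.25% and 9.38%. Where the clone lay over 2000 bases away (95 windows), the TATA share was 11.6%, the GC box share 50.5% and the ETS share 18.9%. The CCAAT box was found at about the same share in each set, 36.2% with the nearest clones and 38.4% over expressed protein-coding genes. The windows printed above were searched over their full 300 bases. Setd4 held the CCAAT box and the ETS and NRF1 cores, and Srsf1 the GC box, the CCAAT box and the ETS core. Mkrn1 held the same motifs as Srsf1, with its ETS core outside the bases printed. Irgq held the GC box, the CCAAT box and the NRF1 and CRE cores. Cdkl4 held the GC box, the CCAAT box and the CRE core, Stk40 the GC and CCAAT boxes, and Alas1 the GC box. A match is a match of letters in a window, and these shares were not tested against each other.

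**Figure D2:**
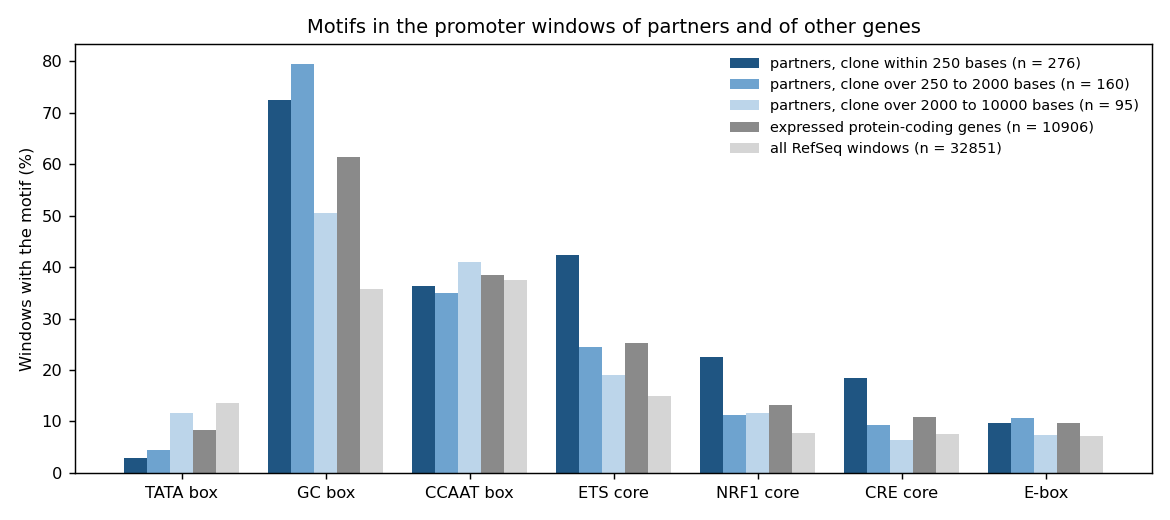
Share of promoter windows (vertical axis, %) that hold each motif on either strand (horizontal axis), for partners grouped by the distance of their clone, for expressed protein-coding genes and for all RefSeq windows. The ETS core stands at 42.4% in partners with a clone within 250 bases and at 25.3% in expressed protein-coding genes, while the TATA box stands at 2.90% and 8.26%.

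Clones were read at low levels beside genes of ordinary brain expression. The median summed count of a clone was 161 (quartiles 73 and 380), and the median level 0.429 RPKM (quartiles 0.196 and 0.955), against 8.84 RPKM for the partners. The RPKM of the clone as a share of that of its partner had a median of 5.69% (quartiles 1.97% and 16.8%). In 594 pairs (63.1%) the clone stood below 10% of the partner, and in 47 it stood above the partner. Clones just past the 3′ end of a gene on the same strand (1477 rows) had a median of 1.02 RPKM, and clones over 10 kb from any gene (1387 rows) one of 0.238.

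The levels of clone and partner were weakly related across the 941 pairs, with a Spearman correlation of 0.17 on RPKM, given as a description since the pairs share libraries and some share a partner. It was 0.22 for the 369 clones within 200 bases and 0.06 for the 209 over 2000 bases. The median ratio changed little with distance, from 5.45% within 200 bases to 7.17% over 2000 bases. In single libraries the median ratio was 5.59%, 4.78% and 5.74% in sham and 5.80%, 5.46% and 5.23% after ischemia/reperfusion, so the groups overlapped.

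Counting each locus once, by its row with most counts, the 8 most abundant clones lay 66 to 9210 bases from the partner, and some overlap small RNA genes. fantom3_F630046N03, a row of 378 bases lying 7320 bases from the mitotic kinesin gene Kif2c, reached 281 ± 13.3 RPKM in sham and 256 ± 27.7 after ischemia/reperfusion (SD, n = 3), while Kif2c stood at 0.116 ± 0.0585 and 0.148 ± 0.0632. That row overlaps Gm25099, a small nuclear RNA gene of RefSeq. fantom3_F730216O17, beside Alyref2, also overlaps a small nuclear RNA gene (LOC115487699) and stood at 13.6 ± 2.41 and 12.0 ± 1.04 RPKM. In all, 7 of the 941 clones overlapped a small RNA gene.

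fantom3_A230094O04, 9210 bases from Celf2, a gene for an RNA-binding protein that regulates splicing in neurons, overlapped no RefSeq gene and held 1790, 3792 and 1996 counts in sham and 2466, 3180 and 2213 after ischemia/reperfusion. Its mean of 31.4 RPKM was above the 14.8 RPKM of Celf2. The groups overlapped, with sham replicate 2 the highest of the 6 libraries. fantom3_3110089B20, at 15.9 RPKM, faces Plk4 in the table at 7307 bases and overlaps the RefSeq span of Hspa4l. fantom3_2810001A02 is a closer case: 92 bases from Tbc1d22a, it stood at 15.6 RPKM beside 13.1 for its partner. fantom3_2010003B17, which overlaps the RefSeq lncRNA Gm26944, lay 66 bases from Ankrd42 and stood at 6.99 RPKM beside 6.21. fantom3_2700079J08 (11.5 RPKM, 3656 bases from Rsg1) and fantom3_6330578N16 (10.6 RPKM, 3367 bases from Hapln2) complete the 8 highest.

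Among the clones nearest to a 5′ end the levels were lower. fantom3_4930500F10 held 56, 40 and 44 counts in sham and 44, 48 and 53 after ischemia/reperfusion, and its 1.39 RPKM made 8.80% of the level of Alas1. fantom3_4930524N08 stood at 6.06% of Mkrn1, fantom3_A630046C21 at 3.31% of Srsf1, fantom3_A530062L09 at 3.75% of Irgq and fantom3_9630010L05 at 4.64% of Fry. Higher shares were seen for fantom3_A830035G07 (40.1% of Setd4, itself at 2.40 RPKM) and fantom3_0710001D07 (33.4% of Btbd9). The clones at Btbd9 and Fry overlap the RefSeq span of their partner, as do those at Mkrn1, Srsf1 and Setd4. fantom3_9130230N09, 25 bases from the glycosyltransferase gene B3gnt2, stood at 11.5%. None of these 8 had an edgeR p under 0.05, and their log2 fold changes ran from -0.16 (SE 0.29) for fantom3_A530062L09 to 0.43 (SE 0.29) for fantom3_A830035G07.

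Some promoters faced several clone rows, many of them overlapping. Ube2q1, which encodes a ubiquitin-conjugating enzyme, faced 8 clone rows of 1 locus, at 209 to 3394 bases and 1.89 to 5.24 RPKM. The locus overlaps the lncRNA 4632404H12Rik. The row with the most counts, fantom3_C130034I06, stood at 25.1% of Ube2q1. Its counts were 698, 576 and 647 in sham and 664, 643 and 535 after ischemia/reperfusion, and the log2 fold changes of the 8 rows ran from -0.29 to -0.05 with no p under 0.05. Cdc5l, a spliceosome component, faced 4 rows of 1 locus (overlapping lncRNA B230354K17Rik) at 3.51 to 3.69 RPKM. Among them was 1 pair of rows with identical counts. Hexim2, a gene for an inhibitor of the elongation factor P-TEFb, and Dcun1d5 also faced 4 rows each, in 1 and 2 loci, at 0.853 to 2.71 and 2.52 to 7.33 RPKM. Scrt1, a transcriptional repressor of neurons, faced 4 rows in 2 loci at 0.402 to 1.36 RPKM. In all, 140 partners faced more than 1 row, and 24 clones had counts identical to another, so rows are not independent of each other.

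The first comparison asked which clones differed between ischemia/reperfusion and sham. With edgeR's quasi-likelihood test over 40170 rows and Benjamini-Hochberg adjustment, 774 of the 941 clones had enough counts to be tested and 0 were called at an adjusted p of 0.05, where the share called over all rows was 0.00249%. The smallest adjusted p was 0.129. Before adjustment, 30 clones (3.88%) were higher and 13 (1.68%) lower at p under 0.05, against 8.73% and 6.9% of all rows. DESeq2 gave an adjusted p to 441 of these clones and to 32377 of all rows. It called 4 of the clones, 3 of them higher, where it called 1.1% of those 32377 rows higher and 0.707% lower. Complete separation of the 3 sham from the 3 ischemia/reperfusion values in CPM was seen for 74 clones on the higher side (9.56%) and 31 on the lower (4.01%), against 14% and 6.99% of all rows. Without ischemia/reperfusion replicate 1, edgeR called 9 of 805 clones (1.12%) and 27 of 755 partners (3.58%), against 2.58% of all rows in that fit. Those 9 were fantom3_5830408J21, fantom3_2610305J24, fantom3_B230364D06, fantom3_6030498J18, fantom3_6330578N16, fantom3_F830001I08, fantom3_B230033G16, fantom3_9530026E24 and fantom3_C130009M24, each over 2000 bases from its partner.

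In the authors' deposited table, 34 of the 941 clones had a q under 0.05 and were higher and 10 were lower, against 14.7% and 9.77% of its 45851 rows. The same table listed 767 of the partners and had 234 of them higher and 132 lower at that q. Both shares lay above those of all its rows, where both shares of the clones lay below. Partners also held more counts, with a median sum of 9262 over those tested here against 213.5 for clones. These differences were not tested.

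The median log2 fold change was 0.01 over the clones, 0.00 over the partners and 0.02 over all rows. The summed level of the 941 clones was 1372 ± 45.7 CPM in sham and 1405 ± 41.0 after ischemia/reperfusion (SD, n = 3), with overlapping libraries. The summed level of remote clones was 2230 ± 56.6 and 2500 ± 209 CPM, and that of clones just past a 3′ end 10123 ± 323 and 9142 ± 667. The median log2 fold change was 0.17 over the 1044 remote clones tested and -0.15 over the 1364 downstream clones tested. Clones of 200 to under 1000 summed counts can be set side by side at like depth: 3.13% of 320 divergent clones were higher and 2.19% lower at p under 0.05, 13.0% and 3.69% of 407 remote clones, 7.85% and 3.46% of 2547 gene rows, and 4.02% and 7.85% of 497 downstream clones. At 50 to under 200 counts the shares lay closer, with 4.37% and 0.820% of 366 divergent clones, 5.33% and 1.78% of 507 remote clones and 6.17% and 1.75% of 1653 gene rows. These differences between sets were not tested.

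The share of clones that were higher before adjustment varied with distance, and the share that were lower did not follow it. Within 500 bases, 11 of 481 clones tested (2.29%) were higher at unadjusted p under 0.05 and 7 (1.46%) lower, and these came from 10 and 7 loci. Over 2000 bases, 17 of 158 (10.8%) were higher and 2 (1.27%) lower, from 15 and 2 loci. The higher share at this distance stood beside 8.73% of all rows and 10.4% of remote clones, and the lower share beside 6.9% and 3.64%. The median log2 fold change was 0.01 both within 200 bases and over 2000 bases, with 52.4% and 50.6% of clones above 0, and it was 0.17 in remote clones, with 62.8% above 0. The 4 clones called by DESeq2 all lay over 2000 bases from the partner. The difference between the distance classes was not tested.

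**Figure D3:**
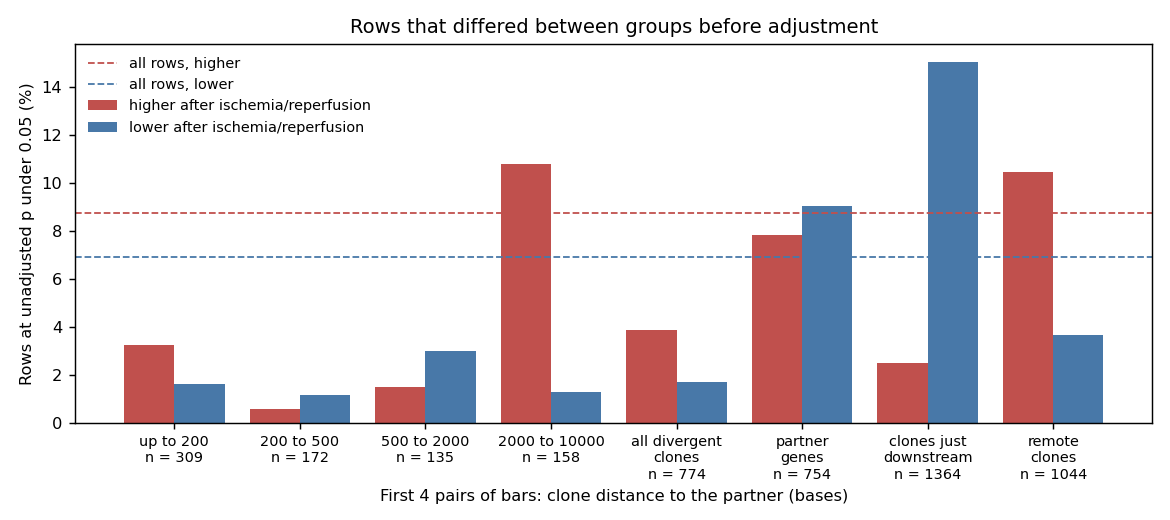
Share of rows tested (vertical axis, %) at an unadjusted edgeR p under 0.05, higher (red) or lower (blue) after ischemia/reperfusion, for divergent clones by distance, all divergent clones, their partners and the comparison sets, with the share over all rows as dashed lines. Clones at 2000 to 10000 bases reach 10.8% on the higher side and those nearer stay at or below 3.24%.

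The clone with the smallest p was fantom3_5830408J21 on chromosome 8 (121835065 to 121837594, plus strand), 5496 bases from Klhdc4, a gene for a kelch-domain protein. It held 165, 157 and 163 counts in sham and 262, 357 and 289 after ischemia/reperfusion. All 3 ischemia/reperfusion libraries lay above sham, with a log2 fold change of 0.92 (SE 0.17), an edgeR adjusted p of 0.129 and a DESeq2 adjusted p of 0.00188. An overlapping row, fantom3_2610305J24, gave 133, 107 and 117 against 201, 239 and 211 counts (log2 fold change 0.88, SE 0.18, DESeq2 adjusted p 0.00662), and can share reads with it. Both overlap Gm42048, a RefSeq gene on the same strand (121833991 to 121843902), in which fantom3_5830408J21 lies whole. Klhdc4 had a log2 fold change of 0.21 (SE 0.13, edgeR p 0.136), and the ratio of clone to partner was higher in all 3 ischemia/reperfusion libraries than in sham.

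fantom3_9530026E24, 5431 bases from Reep3, a gene for a protein that shapes the endoplasmic reticulum, held 53, 49 and 53 counts in sham and 106, 100 and 107 after ischemia/reperfusion. The libraries of each group lay close together and far from the other group, and the log2 fold change was 1.02 (SE 0.21, edgeR adjusted p 0.147, DESeq2 adjusted p 0.0181). Reep3 itself overlapped between groups (0.22, SE 0.17). The clone overlaps the longer RefSeq span of Jmjd1c, a gene of the histone demethylase family on the same strand that starts at 67096351, while the Jmjd1c row of the table starts at 67127258. That row gave a log2 fold change of 0.28 (SE 0.13, edgeR p 0.0517).

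fantom3_C130009M24 had a log2 fold change of 1.87 (SE 0.48, edgeR adjusted p 0.162), with 6, 11 and 6 counts in sham and 18, 27 and 39 after ischemia/reperfusion. It is 8977 bases from Gm10789 and overlaps the longer RefSeq span of Tiam1, which encodes an activator of the GTPase Rac. The Tiam1 row of the table gave 0.13 (SE 0.12). In each of these 3 places the gene the clone faces in the table differs from the RefSeq gene that it overlaps on the same strand. Over the 85 clones that overlap another RefSeq protein-coding gene, 6 of 81 tested (7.41%) were higher and 0 lower at p under 0.05, against 8.73% and 6.9% of all rows.

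The other higher clones of smallest p were fantom3_D830036C21 near the DNA repair gene Ercc1 (log2 fold change 1.07, SE 0.32), fantom3_F630308O13 near Rhof (0.51, SE 0.16), fantom3_I0C0047P14 near Cyp2s1 (0.93, SE 0.31), fantom3_C230063B02 near 4930502E18Rik (0.74, SE 0.25) and fantom3_4930513N24 near the exchange factor gene Arhgef10 (0.74, SE 0.26). fantom3_D830036C21 held 18, 15 and 19 counts in sham and 37, 37 and 35 after ischemia/reperfusion. fantom3_I0C0047P14 is the nearest of them, 124 bases from Cyp2s1, with 24, 19 and 19 against 43, 35 and 40 counts. Their groups did not overlap in CPM, and their edgeR adjusted p ran from 0.194 to 0.224. The partners Ercc1, Rhof, Cyp2s1 and Arhgef10 had log2 fold changes from -0.03 to 0.15 and 4930502E18Rik one of -0.30 (SE 0.63), none with p under 0.05.

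On the lower side, fantom3_6330578N16 was the clone that DESeq2 called (adjusted p 0.0303). It lies 3367 bases from Hapln2, a gene for a link protein of the matrix at nodes of Ranvier that oligodendrocytes make. The clone overlaps the RefSeq lncRNA Gm19439. It held 1700, 1304 and 1169 counts in sham and 1122, 795 and 841 after ischemia/reperfusion, with a log2 fold change of -0.59 (SE 0.15, edgeR adjusted p 0.161). Its groups came close, with the lowest sham library near the highest ischemia/reperfusion one. Hapln2 stood at 15.8 ± 2.56 RPKM in sham and 17.3 ± 2.92 after ischemia/reperfusion. Summed oligodendrocyte markers in the 3 ischemia/reperfusion libraries were 3896, 4839 and 10032 CPM; their part in the difference was not tested.

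fantom3_D030062G21, 1817 bases from Hnrnpu, a gene for an abundant nuclear RNA-binding protein, held 66, 54 and 94 counts in sham and 23, 38 and 33 after ischemia/reperfusion. All ischemia/reperfusion libraries lay below sham, with a log2 fold change of -1.16 (SE 0.31, edgeR p 0.00280, adjusted 0.167, DESeq2 adjusted 0.0596). Hnrnpu went the other way, from 50.8 ± 2.45 to 62.3 ± 1.58 RPKM (log2 fold change 0.24, SE 0.09, edgeR p 0.0223, adjusted 0.254), also without overlap. The clone's share of its partner differed by -1.30 on the log2 scale (with 0.05 RPKM added to each level), a description since the pair was picked for the clone's change.

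fantom3_B230347A18, 221 bases from Mafg, a small Maf transcription factor that pairs with stress-responsive factors, showed the same opposition near a promoter. It held 203, 207 and 219 counts in sham and 156, 159 and 151 after ischemia/reperfusion, a log2 fold change of -0.42 (SE 0.16, edgeR p 0.0216). Mafg stood at 11.3 ± 1.38 and 15.0 ± 0.355 RPKM (0.35, SE 0.11, edgeR p 0.00984). Both rows separated the groups in opposite directions, and neither passed adjustment (0.252 and 0.212). The clone overlaps the RefSeq span of Mafg, which begins further upstream than the row in the table. It also overlaps another RefSeq gene, Gm17586.

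fantom3_G630068J03 begins 11 bases from Mapre2, a gene for a microtubule end-binding protein, and overlaps the lncRNA Gm15972. It held 49, 40 and 54 counts in sham and 16, 30 and 25 after ischemia/reperfusion (log2 fold change -0.99, SE 0.33, edgeR adjusted p 0.220), while Mapre2 stood at 23.8 ± 1.33 and 27.8 ± 1.81 RPKM (0.17, SE 0.09). Lower values were also seen for fantom3_3300002P09 near Mbd3, a subunit of a chromatin-remodelling deacetylase complex (-0.64, SE 0.25), fantom3_A230088E03 near Tsga10 (-0.62, SE 0.22), fantom3_B230387P15 near Zfp580 (-1.07, SE 0.38) and fantom3_D330042G03 near Dpf2, a subunit of a chromatin-remodelling complex (-0.49, SE 0.18). Their edgeR adjusted p ran from 0.233 to 0.271, and the 4 partners had log2 fold changes from -0.01 to 0.09.

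The second comparison set the change of each clone beside that of its partner. Of the 776 partners, 754 were tested and 0 were called by edgeR, where the smallest adjusted p was 0.123. At unadjusted p under 0.05, 59 (7.82%) were higher and 68 (9.02%) lower, against 8.73% and 6.9% of all rows. Complete separation of the groups was seen for 100 on the higher side (13.3%) and 63 on the lower (8.36%), against 14% and 6.99%. DESeq2 gave an adjusted p to 736 partners and called 14, 8 higher and 6 lower, where it called 1.8% of all 32377 rows with one. Without sham replicate 2, edgeR called 1 partner, and without ischemia/reperfusion replicate 2 also 1, where it called 34 and 43 of all rows.

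Over the 763 pairs with both rows tested, the log2 fold changes of clone and partner had a Pearson correlation of 0.09 and a Spearman correlation of 0.09, and 404 pairs (52.9%) had the same sign. The correlations are across pairs that share 6 libraries, and they are descriptions. Among the 401 pairs whose clone held 200 or more counts the Spearman correlation was 0.08, and among the 86 with 1000 or more it was 0.09. Those 86 pairs had a Pearson correlation of 0.17 and the same sign in 62.8%. In pairs of divergent genes the Spearman correlation was 0.11 (1603 pairs) and, where the 5′ ends lay within 2000 bases, 0.15 (1064 pairs). Clones just past a 3′ end and their nearest gene on either strand gave 0.31 (1331 pairs), and remote clones and their nearest gene 0.19 (886 pairs).

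By distance the Spearman correlation of clone and partner was 0.06 within 200 bases (308 pairs), 0.14 at 200 to 500, 0.17 at 500 to 2000 and 0.06 over 2000 (149 pairs). The library kit is a general RNA kit whose description in the labels names no strand marking, and none of the sources states which strand setting the counting used. Reads of a clone and of unannotated upstream sequence of its partner therefore cannot be told apart by strand.

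**Figure D4:**
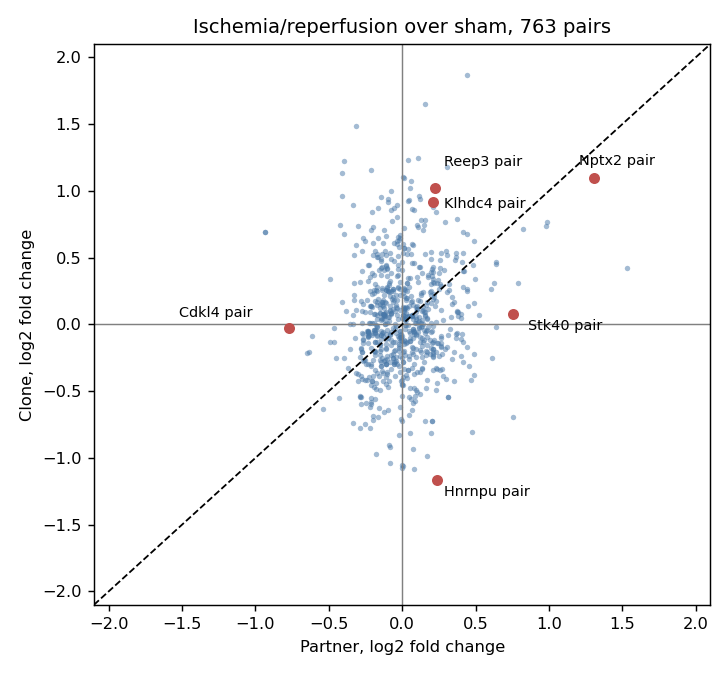
Log2 fold change (ischemia/reperfusion over sham) of each clone (vertical) and of its partner (horizontal) for 763 pairs, with a dashed line at equal change and 6 pairs named in the text in red. The cloud stretches along the vertical axis, and 52.9% of pairs have the same sign.

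Of the 43 clones with an unadjusted p under 0.05, 6 had a partner with one too, and the direction was the same in 1 of these. That pair is Nptx2, a secreted pentraxin induced by neuronal activity that gathers glutamate receptors at synapses, and fantom3_4930568B11, 129 bases upstream. The clone held 10, 20 and 11 counts in sham and 36, 19 and 33 after ischemia/reperfusion, and Nptx2 1368, 3766 and 2335 against 8348, 4210 and 6043. Within each group both rows put the libraries in the same order, with sham replicate 2 the highest of its group and ischemia/reperfusion replicate 2 the lowest. The log2 fold changes were 1.09 (SE 0.43, edgeR adjusted p 0.264) and 1.30 (SE 0.46, adjusted 0.298). The clone's 2 groups overlapped by 1 library each, and Nptx2's did not overlap.

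The other 5 pairs went in opposite directions. Besides Hnrnpu and Mafg these were fantom3_B230212L17 near the transcription factor gene Nfib (1.48, SE 0.55, against -0.31, SE 0.11) and 2 overlapping clones near Slc25a20, the mitochondrial carnitine carrier (0.96, SE 0.40 and 1.13, SE 0.46, against -0.41, SE 0.15). These 3 clones lay at 7374 to 8526 bases. The clone near Nfib overlaps a RefSeq lncRNA, and the 2 near Slc25a20 overlap a RefSeq protein-coding gene other than their partner.

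**Figure D5:**
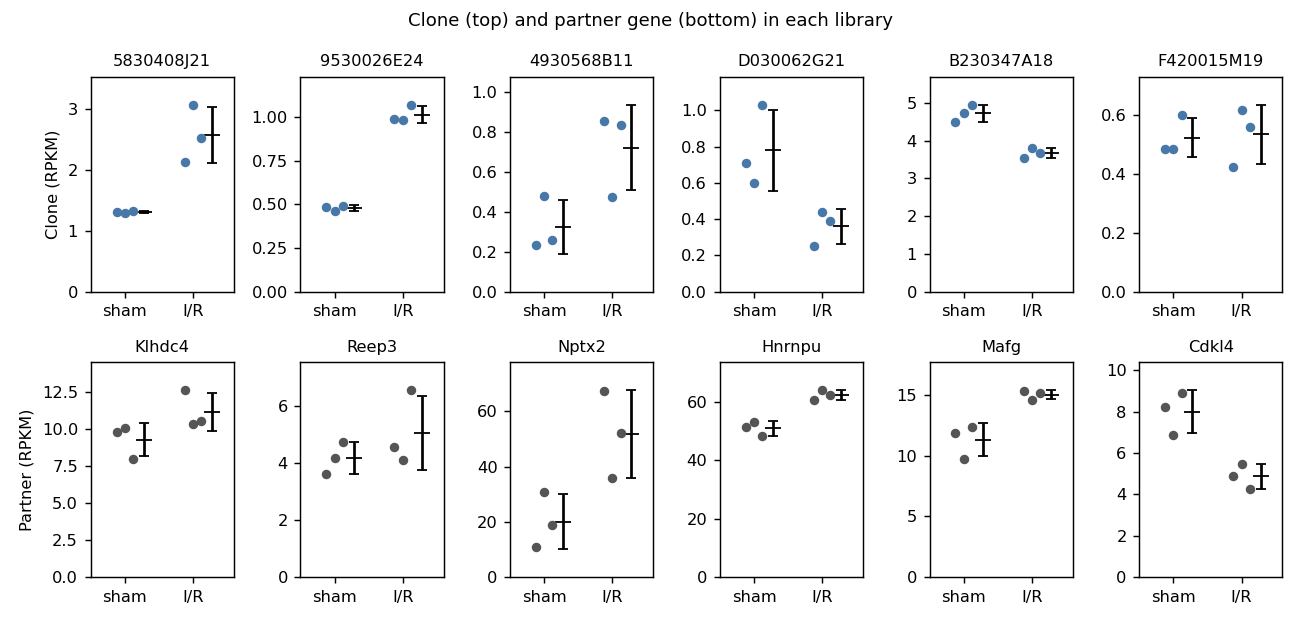
RPKM of 6 clones (top) and their partners (bottom) in each of the 3 sham and 3 ischemia/reperfusion (I/R) libraries (points), with mean and SD beside them; each panel has its own axis from 0. The clone beside Nptx2 lies on the same side as its partner, those beside Hnrnpu and Mafg on the opposite side, and the clone beside Cdkl4 overlaps between groups where Cdkl4 does not.

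Partners that DESeq2 called, named here after their values were seen, give the reverse view. Cdkl4 held 1196, 967 and 1275 counts in sham and 693, 740 and 566 after ischemia/reperfusion, without overlap (log2 fold change -0.77, SE 0.14, edgeR adjusted p 0.123, DESeq2 adjusted p 0.000422). fantom3_F420015M19, which covers the upstream end of the Cdkl4 window printed above and overlaps the RefSeq span of Cdkl4, held 55, 53 and 67 against 47, 65 and 58 counts (-0.03, SE 0.25). Stk40 stood at 3.52 ± 0.615 and 6.19 ± 1.35 RPKM (0.76, SE 0.17, edgeR adjusted p 0.150, DESeq2 0.0109), and its clone fantom3_F930111O14 held 26, 17 and 23 against 23, 26 and 20 counts (0.08, SE 0.36). Both clones overlapped between groups.

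Klf15, a transcription factor gene induced by glucocorticoids, was lower (-0.65, SE 0.13, DESeq2 adjusted p 0.00369), and its clone fantom3_A330086M03 held 11, 12 and 12 against 11, 9 and 10 counts (-0.21, SE 0.45). Soga2 was higher (0.48, SE 0.09, DESeq2 adjusted p 0.00569), and its clone fantom3_D330030K19, 104 bases away, held 100, 117 and 66 against 155, 124 and 106 counts (0.45, SE 0.25). That clone's value was close to that of its partner, and its groups overlapped. Phf12 was higher (0.46, SE 0.11) and its clone fantom3_3010009I23, 27 bases away, gave -0.31 (SE 0.31). Of the 14 pairs, 10 clones were tested, 8 had the sign of the partner, 9 had a log2 fold change smaller in size than the partner's and 0 had an edgeR p under 0.05. Their log2 fold changes ran from -0.55 to 0.45, with SEs of 0.23 to 0.45.

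The remaining called partners were higher for the RNA-binding protein gene Samd4b (0.64, SE 0.13), A930011O12Rik (0.62, SE 0.13), the forkhead factor gene Foxo6 (0.69, SE 0.19), Atxn2l (0.50, SE 0.11) and the deubiquitinase gene Usp36 (0.70, SE 0.16). They were lower for Mfsd2a, the lipid transporter of the blood-brain barrier (-0.62, SE 0.16), Nt5c3 (-0.43, SE 0.11), Prkrir (-0.45, SE 0.11) and the epoxide hydrolase gene Ephx1 (-0.49, SE 0.12). Clones of Samd4b, Foxo6, Mfsd2a and Usp36 held too few counts to be tested. The clone of Nt5c3, fantom3_A330102P17, gave -0.55 (SE 0.33), and that of Atxn2l, fantom3_4930456A14, gave 0.34 (SE 0.27). Both separated the groups in CPM in the direction of the partner, as 14% of all rows did upward and 6.99% downward. The clones of A930011O12Rik and Prkrir gave 0.31 (SE 0.43) and -0.25 (SE 0.23), and that of Ephx1 went against its partner with 0.34 (SE 0.37). The groups overlapped for the clones of A930011O12Rik, Prkrir and Ephx1.

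The ratio of clone to partner was also compared library by library. In 67 of 763 pairs (8.78%) the 3 ischemia/reperfusion ratios all lay above the sham ratios and in 44 (5.77%) all below, where 7.62% and 12% of 2980 intergenic clones of all kinds did so against their nearest gene. The clone at Srsf1 gave one such case: fantom3_A630046C21, which overlaps the RefSeq span of Srsf1, held 40, 56 and 45 counts in sham and 65, 59 and 59 after ischemia/reperfusion (0.38, SE 0.25), with Srsf1 at 28.8 ± 2.34 and 28.4 ± 3.26 RPKM.

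Partners were also read by role, from lists that hold other genes of brain and stress biology. The immediate early and activity-regulated list had 5 of 38 genes among the partners, with 2 higher at p under 0.05 and 0 lower, and 1 of the 5 clones higher. Here and in the lists that follow, 8.73% of all rows were higher and 6.9% lower at that p, and counts this small are not read against them. Besides Nptx2 these were Nr4a3, a nuclear receptor induced by activity (0.64, SE 0.28; clone fantom3_K430345O14, 8026 bases away, -0.02, SE 0.26), Ier2 (0.98, SE 0.43; clone fantom3_A130053L16, 0.74, SE 0.48), Klf6 (0.24, SE 0.14; clone fantom3_B230207M22, -0.14, SE 0.59) and Homer1, a scaffold of the postsynaptic density (0.17, SE 0.11; clone fantom3_A230091C14, -0.41, SE 0.48). The median log2 fold change was 0.64 over these partners and -0.02 over their clones, beside 0.02 over all rows.

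Heat shock and protein folding genes were partners in 3 of 39 cases. Dnaja4, a co-chaperone, stood at 10.5 ± 0.575 and 14.6 ± 3.19 RPKM (0.41, SE 0.14, edgeR p 0.0143), and its clone fantom3_G630005B13, 1132 bases away, held 53, 56 and 46 against 59, 50 and 32 counts (-0.13, SE 0.28). Dnaja4 separated the groups and its clone did not. Hspa9, the mitochondrial Hsp70, gave -0.05 (SE 0.12) with its clone fantom3_B130017N13 at 0.18 (SE 0.26), and Hspa4l 0.00 (SE 0.09) with fantom3_G270012F21 at -0.73 (SE 0.56).

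RNA processing genes gave 6 partners of 66, with 1 clone lower (that of Hnrnpu) and 1 partner higher (Hnrnpu). Brain transcription factors gave 9 partners of 100 with 13 clones. Sox4, a factor of neural progenitors and immature neurons, had 2 of the clones with most counts, fantom3_F830103M23 (-0.10, SE 0.25) and fantom3_K230004I21 (0.11, SE 0.36). Both overlap the lncRNA Gm46405, and Sox4 itself gave 0.26 (SE 0.27). fantom3_K530005H07, 9571 bases from the chromatin organizer gene Satb1, gave -0.07 (SE 0.25) beside -0.11 (SE 0.21).

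Genes of synapses and ion channels gave 13 partners of 97 with 18 clones, of which 17 were tested and 0 had a p under 0.05. fantom3_B230337G05 (overlapping lncRNA Gm15631) stood at 64.1% of the adhesion gene Cntn4 and fantom3_G630066J12 at 4.12% of the synaptic adhesion gene Nlgn1. Their log2 fold changes were 0.01 (SE 0.17) and 0.32 (SE 0.21), beside 0.09 (SE 0.11) and -0.23 (SE 0.13) for the partners. Glia, vessel and immune genes gave 2 partners of 61. Glul, the glutamine synthetase of astrocytes, stood at 663 ± 42.0 RPKM in sham and 547 ± 54.4 after ischemia/reperfusion, without overlap (-0.34, SE 0.10, edgeR adjusted p 0.193), and its clone fantom3_A430095E15, at 0.0722% of Glul, held 22, 44 and 13 against 14, 18 and 15 counts (-0.74, SE 0.48). Summed astrocyte markers, which include Glul, were 5706 ± 37.2 CPM in sham and 5197 ± 267 after ischemia/reperfusion; their part in this value was not tested. Socs3, an inhibitor of cytokine signalling, had 507, 1922 and 479 counts in sham against 1689, 975 and 1238, with sham replicate 2 the highest library, and its clone fantom3_A130047L05 gave -0.07 (SE 0.57).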

How the data were processed

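RNA of 6 mouse brain samples (3 sham, 3 ischemia/reperfusion), freed of ribosomal RNA, was sequenced from both ends after library making with a NEBNext Ultra RNA kit, per the labels' protocols. The build was mm10, per the submitters' processing notes. The aligner, the counter and its strand option are named in none of the sources used here. The authors deposited whole-number counts and RPKM values per row (count per kilobase of row and per 1000000 counts of the library total; CPM here are scaled alike, without length), and row lengths, another deposited value. A second table of the authors' comparison holds a deposited log2 fold change and deposited p-values and q-values, from a test that none of the sources names.

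Clones were chosen by position and by summed counts, and the members, partner lists, motifs and named genes were chosen with earlier results of these data known. Named clones were the 8 highest by RPKM, the 8 smallest p on either side, the 8 nearest with at least 0.5 RPKM, those of the partners with most rows, and up to 3 by count per partner list. Overlapping rows were named once, by the row with most counts. Rows called by DESeq2, the clones called without ischemia/reperfusion replicate 1, pairs whose rows both had a p under 0.05, and the clones of Nptx2 and Homer1, were added after their values were seen. A clone and partner that the rule names are not reported here.

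Counts of all rows were tested with edgeR 4.0.16 in R 4.3.3 (TMM factors, filterByExpr, robust quasi-likelihood F test, two-sided, Benjamini-Hochberg adjustment over 40170 rows, threshold 0.05). The SE was the log2 fold change divided by the square root of F. DESeq2 1.42.0 and limma-voom 3.58.1 were alternatives. Gene rows were matched to RefSeq by gene ID (22897 of 23473), and 99.3% of the matched rows overlapped their RefSeq span. On simulated counts, with changed rows of 0.05 to 2 CPM among 39445 rows, the edgeR fit recovered 10.8% of 93 rows changed 2-fold and 68.1% of 91 rows changed 4-fold, and 19.1% of its calls were false. The labels do not say that each library is a separate animal, so p-values measure only how these libraries spread, and part of that spread may be technical.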

Additional observations from a re-analysis of the deposited data

How the results depend on the processing

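The counts of calls depended on the test and on 1 library. DESeq2 called 4 clones and 14 partners, and a fit with no low-count filter called 1 and 2, where edgeR with the filter called 0 and 0. Leaving out 1 library at a time gave 0 to 9 clones and 0 to 27 partners, the highest without ischemia/reperfusion replicate 1. Over all rows the calls were 584 by DESeq2, 77 with no filter and 0 to 1057 in the leave-one-out fits. Over the same leave-one-out fits, clones at unadjusted p under 0.05 numbered 22 to 34 higher and 10 to 31 lower, and partners 31 to 76 higher and 26 to 95 lower. The Spearman correlation of clone and partner changes ran from 0.044 to 0.131 there, and the median log2 fold change of clones from -0.047 to 0.058, so its sign was not fixed. The cause was not tested. Upper-quartile factors gave 35 partners lower and median log2 fold changes of 0.054 for clones and 0.036 for partners. A mean of at least 1 CPM left 13 clones higher, 5 lower, 43 partners lower and a correlation of 0.12. A limit of 2 kb left 13 clones higher. Clones of 100 or more counts left 39 partners higher and 45 lower, and a median level of 8.55% of the partner. With overlapping rows as 1 locus the correlation was 0.12. The counts at unadjusted p, here and in the next paragraph, have no share of all rows in the same fit beside them. The number of rows tested also differs between fits. These counts are therefore not read as results about clones or partners apart from other rows.

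Alternatives chosen after seeing the data gave these values: without clones overlapping the RefSeq span of the partner, 8 clones were lower and 38 partners higher. Over clones overlapping no RefSeq gene, 10 clones were higher and 4 lower, 24 partners higher and 22 lower, the correlation was 0.056, the median log2 fold change of clones 0.042 and the median level 4.36%. These sets hold fewer rows. Replicate numbers did not pair the samples: the correlations of same-numbered libraries' deviations were -0.11, 0.05 and 0.21. With the replicate number as a block, 25 clones were higher and 14 lower at unadjusted p under 0.05, 0 clones and 0 partners were called, and the correlation of changes was 0.09.

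Of 513 values of 40 single rows under the alternatives, 0 were reversed and 36 passed an adjusted p of 0.05. None of these rows did so in the edgeR fit of all libraries. Many of the rows were chosen for a DESeq2 call or a small edgeR p, and DESeq2 is among the alternatives. The passes and the lack of reversals are therefore partly set by that choice. The median SE of the log2 fold change was 0.34 for clones (median of 213.5 summed counts) and 0.12 for partners (median of 9262), and neither set had a call. The simulation recovered 10.8% of 2-fold changes in rows of 0.05 to 2 CPM, a range set for the clones. It held no changed rows at the higher level of most partners.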
